A study of Mus musculus with 8 samples.

Results

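The genes described here are the 211 autosomal protein-coding genes of the mouse whose annotated span on mm10 (GRCm38), end minus start, is 500 kb or more. They were taken from 20665 autosomal protein-coding genes, and the 20449 genes under 500 kb served as the comparison. Sema6d, Foxp2, Foxp1, Pcdh15 and Pcdh9 are as long but were left out, since symbols starting with Fox, Col, Sema, Smad or Pcdh were not taken. The 211 genes ranged in length up to 2271 kb, with a median of 735 kb, and 54 of them spanned 1 Mb or more. Their merged bodies covered 176 Mb, which was 7.32% of the 2403 Mb of autosomal sequence between the first and the last peak of each chromosome.

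The study immunoprecipitated chromatin from mouse embryonic fibroblasts (MEF) and sequenced the DNA (ChIP-seq). The 3 libraries used here came from Hmga2 wild-type cells of the strain C57BL/6, cultured from E15.5 embryos and used at passage 2 to 4. The antibodies were against HMGA2, against ATM and against the phosphorylated histone H2AX (H2AXS139ph in the labels, γ-H2AX below). There was 1 library per antibody, so no value has a replicate error, no test was made, and each interval is a 95% interval for counting error only. The Hmga2 knockout and the input libraries were not analysed here, and peak lists hold no expression values against which the fibroblast label could be checked. On the autosomes the authors' lists held 142818 HMGA2 peaks, 119267 γ-H2AX peaks and 112116 ATM peaks, or 59.4, 49.6 and 46.7 peaks per Mb. A peak was assigned by its midpoint.

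Very long mammalian genes are mostly intron, and many encode adhesion proteins, receptors and channels of neurons. Transcription of such a gene can last for most of a cell cycle, replication of its middle is often late, and several of these genes lie at common fragile sites or collect DNA breaks in neural progenitor cells. HMGA2 binds the minor groove of AT-rich DNA through its AT hooks. ATM is a kinase that phosphorylates H2AX in chromatin around DNA breaks, and γ-H2AX is also found at some transcribed genes.

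The first comparison asked whether the bodies of very long genes held more or fewer peaks per Mb than those of other genes. They held 11572 HMGA2 peaks, 7911 γ-H2AX peaks and 8092 ATM peaks, which were 8.10%, 6.63% and 7.22% of the autosomal peaks. HMGA2 peaks were denser in very long genes, at 65.8 per Mb against 58.2 per Mb in other genes, a ratio of 1.13 (1.11 to 1.15). γ-H2AX peaks were sparser, at 45.0 per Mb in very long genes against 59.0 per Mb in other genes, a ratio of 0.762 (0.744 to 0.781). For ATM the densities lay close together, at 46.0 per Mb in very long genes and 47.0 per Mb in other genes, a ratio of 0.978 (0.955 to 1.00). The direction for γ-H2AX depends on what the genes are set against. Sequence outside protein-coding genes held 44.9 γ-H2AX peaks per Mb, and the ratio of very long genes to it was 1.00 (0.979 to 1.03), whereas other genes exceeded it by a ratio of 1.31 (1.30 to 1.33). For HMGA2 the same ratio was 1.11 (1.09 to 1.13) for very long genes and 0.981 (0.970 to 0.993) for other genes.

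**Figure D1:**
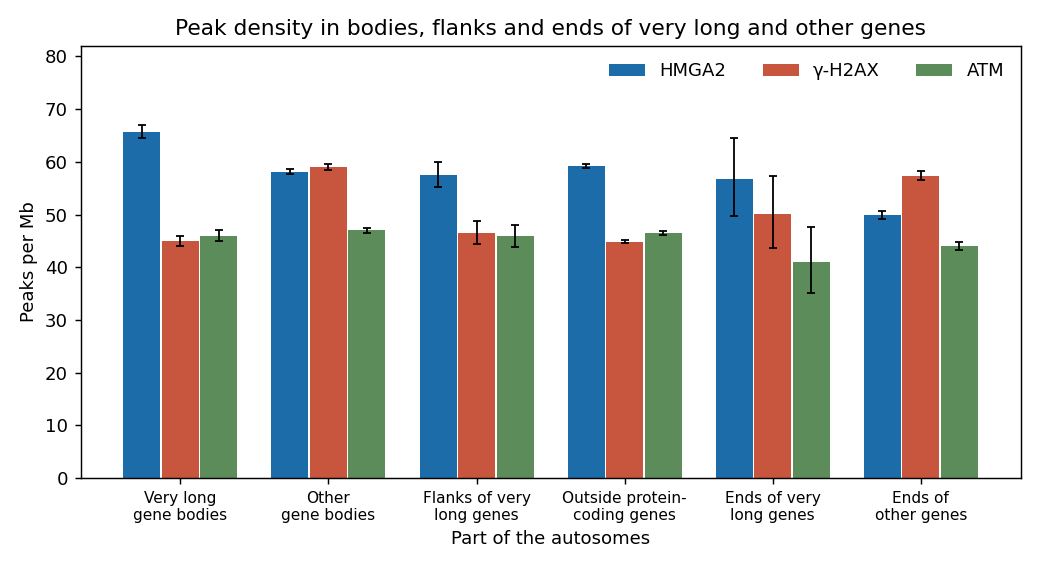
Peaks per Mb of HMGA2, γ-H2AX and ATM (bars, 1 wild-type library each) in bodies of very long genes, bodies of other genes, flanks of very long genes, sequence outside protein-coding genes, and windows of 5 kb on either side of gene ends; error bars are 95% Poisson intervals. γ-H2AX stood at 45.0 per Mb in very long gene bodies and 59.0 per Mb in other gene bodies.

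Set against each other, very long genes held 0.684 γ-H2AX peaks per HMGA2 peak and other genes 1.01, a ratio of 0.674 (0.653 to 0.695). They held 0.699 ATM peaks per HMGA2 peak, against 0.809 in other genes. The γ-H2AX ratio of very long to other genes on the same chromosome was below 1 on each of the 19 autosomes. It was lowest on chromosome 11, at 0.599 (0.512 to 0.697), and highest on chromosome 13, at 0.946 (0.849 to 1.05), the only autosome whose interval reached 1. The HMGA2 ratio was above 1 on 15 autosomes and below 1 on 4. It was highest on chromosome 15, where 7 very long genes held 98.6 HMGA2 peaks per Mb against 55.2 per Mb in other genes, a ratio of 1.78 (1.62 to 1.96), and lowest on chromosome 9, at 0.811 (0.728 to 0.901). The chromosome 15 genes include Csmd3 and the cadherins Cdh18 and Cdh12, at 120, 117 and 96.6 HMGA2 peaks per Mb.

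The densities also varied with length below and above 500 kb. γ-H2AX stood at 62.4 peaks per Mb in genes of 50 to 100 kb, 61.4 at 100 to 200 kb, 61.1 at 200 to 300 kb, 54.5 at 300 to 400 kb and 50.8 at 400 to 500 kb. Within the very long genes it went on to 49.8 at 500 to 750 kb (108 genes), 44.1 at 750 to 1000 kb (49 genes), 42.8 at 1000 to 1500 kb (41 genes) and 37.8 (35.4 to 40.4) in the 13 genes of 1500 kb or more. There was thus no step at 500 kb, and each of these classes was lower than the one before it. HMGA2 was sparse in genes under 10 kb, at 36.7 per Mb, stood between 60.9 and 63.1 per Mb from 50 to 500 kb, and reached 70.0 (67.7 to 72.4) at 1000 to 1500 kb. ATM stayed between 44.5 and 49.3 peaks per Mb in all classes of 50 kb or more. Its density was 49.3 (48.0 to 50.8) at 200 to 300 kb, 44.5 (42.6 to 46.4) at 1000 to 1500 kb and 45.5 in the longest class. Across the 211 genes the rank correlation of γ-H2AX density with length was -0.193, against 0.0288 for HMGA2 and -0.0997 for ATM, so length orders single genes only weakly.

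**Figure D2:**
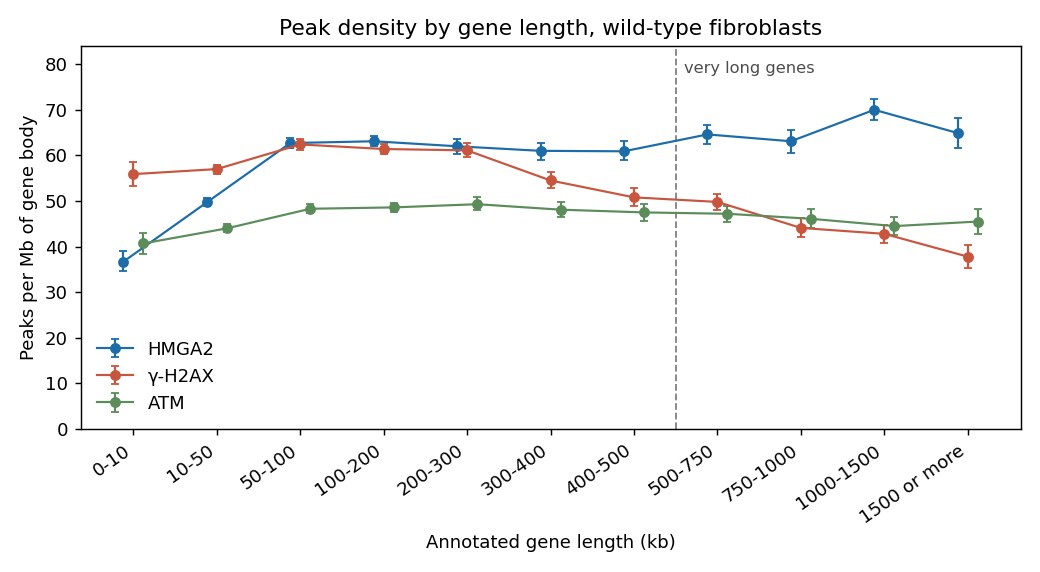
Peaks per Mb of gene body (y axis) in classes of annotated gene length (x axis, kb) for HMGA2, γ-H2AX and ATM in wild-type fibroblasts, with 95% Poisson intervals; the dashed line marks 500 kb. γ-H2AX is lower in each class beyond 100 kb and reaches 37.8 per Mb in genes of 1500 kb or more. ATM varies less, from 49.3 per Mb at 200 to 300 kb to 44.5 per Mb at 1000 to 1500 kb.

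Flanks were taken from 5 to 100 kb outside each end, without bodies of very long genes, and covered 39.3 Mb. HMGA2 peaks were denser in the bodies of very long genes than in these flanks, at 65.8 against 57.6 per Mb, a ratio of 1.14 (1.09 to 1.19). γ-H2AX gave 45.0 per Mb in the bodies and 46.6 per Mb in the flanks, a ratio of 0.966 (0.918 to 1.02), and ATM 46.0 and 45.9 per Mb, a ratio of 1.00 (0.951 to 1.05). The low γ-H2AX density of very long genes was thus shared by the sequence around them. In other genes of 100 to 500 kb the body exceeded the flank for γ-H2AX, at 58.8 against 54.5 per Mb, a ratio of 1.08 (1.06 to 1.10). For HMGA2 these shorter genes had a ratio of 1.16 (1.13 to 1.18), close to that of the very long genes. Gene by gene, the body was denser than the flank in 133 of the 211 very long genes for HMGA2, in 119 for γ-H2AX and in 110 for ATM. For γ-H2AX most bodies were thus denser than their flank, although the pooled ratio was 0.966. Such counts were not made for other genes, and the flank of a single gene holds few peaks. Body and flank density went together across the 211 genes, with rank correlations of 0.486 (HMGA2), 0.564 (γ-H2AX) and 0.280 (ATM peaks). A body and its flank share a library and a chromosomal neighbourhood, and base composition was not measured here.

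**Figure D3:**
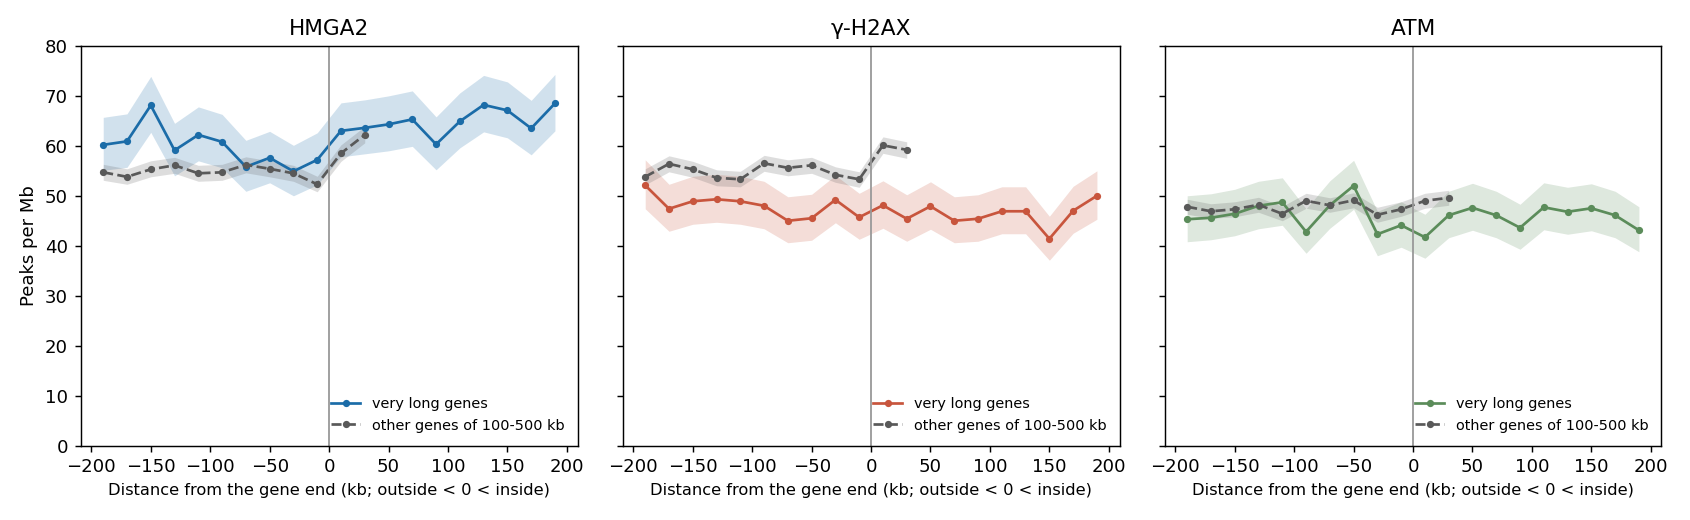
Peaks per Mb (y axis) in bins of 20 kb by distance from the gene end (x axis, kb, negative outside the gene), over both ends, for very long genes (coloured) and other genes of 100 to 500 kb (grey, shown as far as 40 kb inside); bands are 95% Poisson intervals. In very long genes HMGA2 stood at 63.0 per Mb in the first bin inside and 57.2 per Mb in the last bin outside, and γ-H2AX at 48.1 and 45.7 per Mb.

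Within 20 kb inside the ends of very long genes there were 63.0 HMGA2 peaks per Mb (57.8 to 68.6), against 57.2 (52.2 to 62.6) within 20 kb outside. The γ-H2AX density was 48.1 per Mb in the inner and 45.7 per Mb in the outer bin. Other genes of 100 to 500 kb had 60.1 γ-H2AX peaks per Mb in the inner and 53.3 per Mb in the outer bin. When the strand-known very long genes were cut into 10 equal parts from start to end, HMGA2 lay between 64.2 and 68.6 per Mb in the first 8 parts and at 60.2 and 61.2 per Mb in the last 2. The γ-H2AX density ran from 44.1 to 49.8 per Mb and that of ATM from 44.3 to 49.5 per Mb over the 10 parts, without a peak at either end.

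Within 5 kb of the gene ends, on either side, very long genes had 56.9 HMGA2 peaks per Mb against 49.9 per Mb at ends of other genes, a ratio of 1.14 (0.998 to 1.29). The γ-H2AX densities were 50.2 and 57.3 per Mb, a ratio of 0.875 (0.760 to 1.00), and the ATM densities 41.1 and 43.9 per Mb, a ratio of 0.935 (0.800 to 1.09). These ratios rest on 238, 210 and 172 peaks at the ends of very long genes. One or more HMGA2 peaks lay within 5 kb of an end in 135 of 211 very long genes (64.0%), against 52.4% of all autosomal protein-coding genes. The counts were 132 genes (62.6%) against 59.5% for γ-H2AX and 122 genes (57.8%) against 52.6% for ATM. All genes include 7343 under 10 kb, in which the windows of both ends overlap. Among other genes of 100 to 500 kb the shares were 63.5%, 66.1% and 60.6%, inside the intervals of the very long genes. At least 1 antibody had a peak within 5 kb of an end in all but 17 very long genes. The same share among other genes was not computed.

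Starts and ends could be told apart in the 165 very long genes with a strand in the RefSeq promoter table. The 10 kb around their starts held 51.5 γ-H2AX peaks per Mb (41.1 to 63.7), and around their ends 56.7 (45.8 to 69.5). Other genes had 64.0 γ-H2AX peaks per Mb (62.7 to 65.3) at starts and 49.1 (47.9 to 50.2) at ends. The excess of γ-H2AX at starts over ends seen in other genes was not seen in very long genes at this depth. Their ATM density was 37.6 per Mb (28.8 to 48.2) at starts, and its interval at ends, 39.8 to 62.1, overlapped it.

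The authors also deposited lists of promoters with γ-H2AX and with ATM in wild-type cells. A region of the γ-H2AX promoter list lay within 5 kb of an end in 8 very long genes (3.79%, 1.93 to 7.30), against 11.7% of all genes, and a region of the ATM list in 3 (1.42%, 0.485 to 4.10), against 4.59%. How the authors chose these promoters is not given in the sources used here. Regions of the γ-H2AX list lay near the starts of Magi1, Marchf1, Pard3 and Slc9a9, and near an end of Grm5 and Cpq, which had no strand. Those near Camta1 lay beyond its gene end, not at its start. The 3 genes of the ATM list were Lhfpl3, Sugct and Gpc5, each with the region near its start. Grm5 encodes a metabotropic glutamate receptor and Gpc5 a glypican, a heparan sulfate proteoglycan of the cell surface.

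RefSeq promoter sequences (GRCm38.p6, from 250 bases before to 50 after a transcript start) were matched for 165 of the 211 genes, which had 263 such sequences. A γ-H2AX peak touched 10 of the 263 (3.80%), against 3.97% of 19814 promoter sequences of other genes. HMGA2 peaks touched 3 (1.14%), against 1.29% in other genes, and ATM peaks touched 3 (1.14%), against 1.87%. Counted by gene, γ-H2AX peaks touched a promoter in 9 of 165 very long genes (5.45%) against 4.55% of other genes, HMGA2 peaks in 1.82% against 1.52%, and ATM peaks in 1.82% against 2.15%. The direction for γ-H2AX and HMGA2 thus depends on the way of counting. Very long genes have more promoter sequences per gene, 263 for 165 genes against 19814 for 16288 other genes. The HMGA2 and ATM shares of very long genes rest on 3 genes each, and no direction is read from them. The 4 promoters below, picked after the peaks were seen, show what such a peak covers: Lingo2 has the most AT-rich promoter of the 263, Ank2 the one most fully covered, Slc9a9 has peaks of all 3 antibodies near its start, and Pde4d is dense in all 3. Bases under the named peak are in capitals, and each is written 5′ to 3′ along the gene.
Lingo2, HMGA2 peak (score 20.3), chr4:36718914-36719213, minus strand: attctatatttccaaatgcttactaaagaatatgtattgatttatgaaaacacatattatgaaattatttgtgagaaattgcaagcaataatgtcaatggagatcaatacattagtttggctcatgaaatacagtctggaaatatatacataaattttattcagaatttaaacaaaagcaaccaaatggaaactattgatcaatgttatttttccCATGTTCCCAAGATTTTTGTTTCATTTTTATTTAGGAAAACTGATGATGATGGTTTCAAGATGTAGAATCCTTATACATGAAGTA
Ank2, γ-H2AX peak (score 28.9), chr3:127409009-127409308, minus strand: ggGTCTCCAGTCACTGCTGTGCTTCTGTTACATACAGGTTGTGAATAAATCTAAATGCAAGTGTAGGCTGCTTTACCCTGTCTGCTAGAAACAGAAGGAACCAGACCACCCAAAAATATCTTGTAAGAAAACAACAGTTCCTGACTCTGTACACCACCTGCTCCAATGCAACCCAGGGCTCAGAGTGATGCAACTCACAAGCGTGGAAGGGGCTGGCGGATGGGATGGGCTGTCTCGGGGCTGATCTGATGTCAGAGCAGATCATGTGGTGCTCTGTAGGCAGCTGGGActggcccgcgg
Slc9a9, γ-H2AX peak (score 21.1), chr9:94669642-94669941, plus strand: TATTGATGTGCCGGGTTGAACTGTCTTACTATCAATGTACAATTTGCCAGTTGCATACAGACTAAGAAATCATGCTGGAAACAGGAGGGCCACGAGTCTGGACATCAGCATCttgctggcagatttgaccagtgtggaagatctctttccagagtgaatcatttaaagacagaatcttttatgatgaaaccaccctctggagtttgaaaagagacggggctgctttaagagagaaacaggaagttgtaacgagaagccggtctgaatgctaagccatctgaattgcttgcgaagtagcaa
Pde4d, ATM peak (score 24.5), chr13:108653927-108654226, plus strand: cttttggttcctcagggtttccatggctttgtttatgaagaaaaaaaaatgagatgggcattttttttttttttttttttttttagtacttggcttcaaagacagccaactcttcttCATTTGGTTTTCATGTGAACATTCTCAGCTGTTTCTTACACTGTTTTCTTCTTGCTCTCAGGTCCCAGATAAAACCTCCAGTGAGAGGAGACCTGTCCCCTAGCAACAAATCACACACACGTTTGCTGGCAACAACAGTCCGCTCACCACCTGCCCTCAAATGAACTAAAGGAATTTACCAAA

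Lingo2 encodes a leucine-rich repeat membrane protein, and its promoter shown here belongs to a start inside the annotated gene. It was 73.7% A and T, and the 85 bases under the HMGA2 peak were 70.6% A and T. The Ank2 promoter, also of an internal start, was 48.0% A and T and had 287 of 300 bases under the γ-H2AX peak. Slc9a9, a sodium-proton exchanger of endosomes, had 112 promoter bases under its peak, and Pde4d, a cyclic AMP phosphodiesterase, 183. The letters AATT, which read the same on both strands, occur 4 times in the Lingo2 promoter, 2 times in that of Slc9a9, 1 time in that of Pde4d and 0 times in that of Ank2. They occur in 48.7% of the 263 promoters of very long genes and in 44.9% of the 19814 promoters of other genes. With only the outermost promoter of each gene the order turned, at 43.0% of 165 very long genes against 45.9% of 16288 other genes. Among other genes of 100 to 500 kb the share was 34.7%, below that of the very long genes. The median promoter was 43.3% A and T in very long genes and 43.0% in other genes, and with 1 promoter per gene it was lower in very long genes than the 43.3% of other genes.

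In 32 very long genes (15.2%, 11.0 to 20.6) peaks of all 3 antibodies lay within 5 kb of the same end, against 12.5% of all genes. The share of all genes lay inside this interval, so very long genes were near the background and no excess is read from it. The same share among other genes of nearer length was not computed, and the genes named here are examples only. Of the 33 ends of very long genes with peaks of all 3, 17 were gene starts, 13 were gene ends and 3 had no strand. Camta1, a transcription factor of the calmodulin-binding family, was the only gene with all 3 at both of its ends. At its end it had 1 HMGA2, 3 γ-H2AX and 3 ATM peaks, although its body was sparse in all 3 by the limits given below. The starts included those of Nlgn1 (a neuroligin), Cdk14 (a cyclin-dependent kinase), Magi1, Slc9a9, Ptprk (a receptor phosphatase), Grik2 (a kainate receptor), Hs6st3 (a heparan sulfate sulfotransferase), Ctnnd2 (a catenin) and Kalrn (a guanine nucleotide exchange factor). The gene ends included those of Nfia, Sox5, Lpp, Kcnip4, Ryr2, Lrrtm4 and Mdga2. Most of these peaks scored between 20 and 30, near the lowest score in the lists.

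The very long genes differed widely among themselves. HMGA2 density ranged from 9.24 to 151 per Mb with a median of 63.4, γ-H2AX from 10.3 to 130 with a median of 43.0, and ATM from 5.16 to 85.4 with a median of 45.3. Relative to the variance that counting alone gives, the spread between genes was 8.88 times as large in the HMGA2, 6.89 times in the γ-H2AX and 2.32 times in the ATM densities. A gene was counted as dense where it lay more than 25% above the autosomal mean, and as sparse where it lay below 80% of it. For HMGA2 79 genes were dense (37.4%, 31.2 to 44.1, against 33.8% of the 2313 genes of 100 kb or more) and 60 sparse (28.4%, 22.8 to 34.9, against 39.2%). For γ-H2AX 41 genes were dense (19.4%, 14.7 to 25.3, against 41.1%) and 87 sparse (41.2%, 34.8 to 48.0, against 30.9%). For ATM 32 genes were dense (15.2%, 11.0 to 20.6, against 28.1%) and 40 sparse (19.0%, 14.2 to 24.8, against 28.8%). For HMGA2 the share of dense genes was near the background and that of sparse genes below it. For γ-H2AX very long genes had fewer dense and more sparse genes than the background, and for ATM fewer of both. Other genes of 100 to 500 kb have a median of 8 to 10 peaks each, and the part of their counting scatter in these shares was not tested. Between genes the densities of the antibodies went together, with rank correlations over the 211 genes of 0.465 for HMGA2 and γ-H2AX, 0.430 for HMGA2 and ATM, and 0.466 for γ-H2AX and ATM. These are descriptions, since the genes share libraries, sequence composition and whatever background the 3 libraries have in common.

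**Figure D4:**
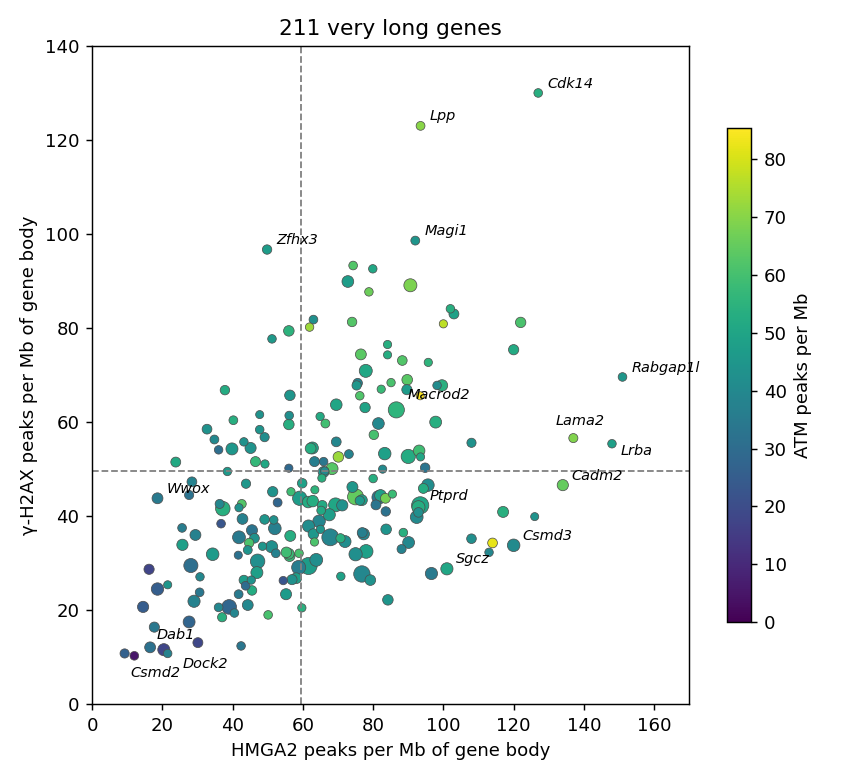
HMGA2 (x axis) against γ-H2AX (y axis) peaks per Mb of gene body for the 211 very long genes, 1 point per gene, with colour for ATM peaks per Mb and area in proportion to gene length; dashed lines are the autosomal means of 59.4 and 49.6. Cdk14 and Lpp stand at the top for γ-H2AX, Rabgap1l at the right for HMGA2, and Csmd2 near the origin.

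The gene densest in HMGA2 was Rabgap1l (chr1:160219174-160793476), which encodes a GTPase-activating protein for Rab proteins. It had 87 HMGA2, 40 γ-H2AX and 26 ATM peaks in 574 kb, or 151, 69.6 and 45.3 per Mb, and its flanks had 47.4 HMGA2 peaks per Mb. Lrba, a BEACH-domain protein of vesicle traffic, had 148 HMGA2 peaks per Mb against 42.1 in its flanks, and 55.4 γ-H2AX and 48.3 ATM peaks per Mb. In both genes the flanks lay below the autosomal mean of 59.4. The flanks of a single gene reach only 100 kb from it and hold few peaks. The counting error of single-gene flank densities, here and below, was not computed. Lama2 (laminin α2), Cadm2 (an immunoglobulin adhesion protein) and Cdk14 followed with 137, 134 and 127 HMGA2 peaks per Mb, and all 3 had flanks of 105 per Mb. The sparsest in HMGA2 were Tmem132d (9.24 per Mb), Csmd2 (12.0), Ntm (14.5), Camta1 (16.2) and Dpp6 (16.5). Tmem132d had 6 HMGA2 peaks in 650 kb and none in its flanks.

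Cdk14 (chr5:4803384-5380251) was also the densest in γ-H2AX, with 75 peaks in 577 kb, or 130 per Mb (102 to 163). Lpp, a LIM-domain protein of focal adhesions, followed with 123 γ-H2AX peaks per Mb (97.0 to 155), against 93.5 HMGA2 and 70.1 ATM peaks per Mb. Magi1, a junctional scaffold, had 98.6 γ-H2AX peaks per Mb, Zfhx3, a zinc-finger homeobox factor, 96.7, and Ank2, which encodes ankyrin-B, 93.3. The interval of each of these genes lay wholly above the autosomal mean of 49.6. At the other end, Csmd2 had 10.3 γ-H2AX peaks per Mb, Dock2 and Tmem132d 10.8, Dab1 11.6 and Dpp6 12.1. Dock2 encodes an exchange factor of blood cells, Dab1 the adaptor of reelin signalling in neurons, and Dpp6 an auxiliary subunit of neuronal potassium channels.

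ATM density varied least. It was highest in Samd12 (85.4 per Mb), Malrd1 (82.3), Gmds (77.0), Pard3 (72.9) and Erc2 (72.4). Gmds encodes the first enzyme of GDP-fucose synthesis, Pard3 a polarity scaffold and Erc2 a protein of the presynaptic active zone. It was lowest in Csmd2 (5.16 per Mb, 1.06 to 15.1), Camta1 (17.5), Dab1 (17.8), Grid1 (18.3), an orphan glutamate receptor subunit, and Khdrbs2 (22.5), an RNA-binding protein. Csmd2 (chr4:127986505-128567660) was thus at the bottom for γ-H2AX and ATM and next to the bottom for HMGA2, with 7 HMGA2, 6 γ-H2AX and 3 ATM peaks in 581 kb.

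Dense in all 3 antibodies were 12 genes (5.69%, 3.28 to 9.68), against 10.4% of the 2313 genes of 100 kb or more. They were Pde4d, Adamtsl1, Hdac9, Sugct, Exoc4, Lpp, Ank2, Kcnq5, Mecom, Nfia, Gmds and Samd12. Pde4d, the longest of them, had 90.6 HMGA2, 89.1 γ-H2AX and 68.4 ATM peaks per Mb, against 42.1, 47.4 and 52.6 per Mb in its flanks. Sparse in all 3 were 23 genes (10.9%), near the background of 11.9%, among them Csmd1, Rbfox1, Cdh13, Dab1, Ntm, Dpp6, Nell1, Camta1, Ptprn2, Grid1, Sorcs3, Ryr3, Csmd2 and Unc5d. Rbfox1, a splicing regulator, had 28.1 HMGA2, 29.5 γ-H2AX and 30.8 ATM peaks per Mb. In 17 genes (8.06%, 5.09 to 12.5) HMGA2 was dense while γ-H2AX was sparse, against 4.06% in the background. The opposite combination, found in 8.17% of the background, was seen in 1 very long gene (0.474%, 0.0837 to 2.64), the receptor phosphatase gene Ptprg, at 37.8 HMGA2 and 66.8 γ-H2AX peaks per Mb. Most background genes hold fewer peaks, and the part of counting scatter in these combined shares was not tested either. The wide, empty stretches of the sparse genes were long: Dab1 had 357 kb without a γ-H2AX peak, Camta1 324 kb without an ATM peak and 270 kb without an HMGA2 peak. The longest stretch without a peak of any antibody was 153 kb, in Dock2. Whether reads can be mapped there was not measured.

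γ-H2AX peaks outnumbered HMGA2 peaks in 47 of the 211 genes (22.3%, 17.2 to 28.4), against 45.1% of the 2313 genes of 100 kb or more. The part of counting scatter in that background share was not tested. The ratio of γ-H2AX to HMGA2 peaks was highest in Wwox, with 40 against 17 peaks (2.35), Dlgap2, with 39 against 18 (2.17), and Zfhx3, with 66 against 34 (1.94). Wwox encodes a WW-domain oxidoreductase and lies at a human common fragile site, and Dlgap2 encodes a postsynaptic scaffold. The ratio was lowest in Marchf1, a membrane ubiquitin ligase, with 19 γ-H2AX against 72 HMGA2 peaks (0.264). Csmd3 had 41 against 145 (0.283), and Sgcz, which encodes ζ-sarcoglycan, 33 against 116 (0.284). In Wwox the high ratio came with few HMGA2 peaks (18.6 per Mb) and a γ-H2AX density of 43.8 per Mb, close to the median of the 211 genes.

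Each of the 5 longest genes had more HMGA2 than γ-H2AX peaks. Ptprd (chr4:75941237-78211742), a receptor phosphatase of synapse formation, had 212 HMGA2, 96 γ-H2AX and 114 ATM peaks, or 93.4, 42.3 and 50.2 per Mb. Cntnap2, a neurexin relative of axons, had 61.6 HMGA2, 29.4 γ-H2AX and 46.8 ATM peaks per Mb. Lsamp, an adhesion protein of the limbic system, had 67.8, 35.5 and 38.7 per Mb, and Lrp1b, a lipoprotein receptor relative, 76.8, 27.7 and 39.4 per Mb. Macrod2, an ADP-ribose hydrolase, had the most γ-H2AX of the 5, with 62.6 γ-H2AX peaks per Mb (52.1 to 74.6) beside 86.6 HMGA2 and 55.6 ATM peaks per Mb, against 26.3 γ-H2AX peaks per Mb in its flanks. Just over the limit of 500 kb, Edil3 (502 kb) had 126 HMGA2, 39.9 γ-H2AX and 43.8 ATM peaks per Mb, Dock1 (503 kb) 47.7, 61.6 and 43.7, and Samd12 (503 kb) 93.4, 65.6 and 85.4. Just under it, Dnm3 (496 kb) had 92.8, 113 and 74.6, Lrrc7 (495 kb) 78.8, 56.6 and 56.6, and Cacna1e (494 kb) 28.3, 30.4 and 50.6.

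Families were then compared by 16 gene lists, which held 98 of the 211 genes. Each density was divided by the autosomal mean of its antibody. HMGA2 was above the mean in the very long members of 13 of the 16 lists, and γ-H2AX below it in 12. Counts of sparse genes below are to be read against the 41.2% of all 211 very long genes that were sparse in γ-H2AX. The 9 very long neurexins, neuroligins, contactins and relatives stood at 0.646 times the mean (333 peaks in 10.4 Mb, 7 genes sparse), with Cntnap2 at 29.4 and Nrxn3 at 30.4 γ-H2AX peaks per Mb. The 6 glutamate receptors stood at 0.661 times (5 sparse), where Grm7 had 35.8 γ-H2AX peaks per Mb. The 9 potassium and calcium channel genes stood at 0.682 times (6 sparse), the 9 immunoglobulin adhesion genes at 0.731 times (5 sparse) and the 6 cadherins and catenins at 0.754 times (3 sparse). Their longest genes were Dpp10, a partner of potassium channels (29.1 γ-H2AX peaks per Mb), Lsamp (35.5) and Ctnna3, an α-catenin (43.8). Lowest were the 6 very long CUB and sushi proteins and LDL receptor relatives, Csmd1, Csmd2, Csmd3, Lrp1b, Sorcs1 and Sorcs3, at 0.517 times the mean, with all 6 sparse in γ-H2AX.

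In 4 lists γ-H2AX stood above the mean. Of all 211 very long genes 19.4% were dense in γ-H2AX, and of the 2313 genes of 100 kb or more 41.1%. The counts of dense genes in these small lists are to be read against both shares. The 11 very long transcription and RNA regulators had 1.26 times the mean (5 dense, 1 sparse), although their HMGA2 density was 0.913 times its mean. Among the longest of them, Rbms3, an RNA-binding protein, had 89.9 γ-H2AX peaks per Mb, Sox5, a factor of cartilage and neurons, 54.5, Auts2 54.3 and Rbfox1 29.5. The 6 genes of the phosphodiesterase and kinase list, which also holds the phospholipase Plcb1 and does not hold Cdk14, had 1.32 times (2 dense, 0 sparse), with Pde4d at 89.1 and Prkg1, the cyclic GMP-dependent kinase, at 53.3 γ-H2AX peaks per Mb. The 5 membrane-associated guanylate kinases and scaffolds had 1.15 times (3 dense, 0 sparse), where the longest, Dlg2, had 44.1 γ-H2AX but 64.9 ATM peaks per Mb, and the last 2 lists also had the highest ATM densities, at 1.24 times the mean each. The 9 axon guidance genes had 1.02 times (2 dense, 3 sparse) and an interval that included the mean, with the Slit receptor Robo2 at 52.7 and the teneurin Tenm2 at 37.4 γ-H2AX peaks per Mb. Below the mean, the 3 glypican and heparan sulfate genes had 0.982 times, the 6 receptor tyrosine phosphatases 0.875 times, the 3 neuregulin and ERBB genes 0.820 times and the 3 dystrophin-associated genes 0.643 times.

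The HMGA2 densities of the lists ordered them differently. The very long membrane-associated guanylate kinases and scaffolds stood at 1.32 times the HMGA2 mean. The glypican, the neuregulin and the phosphodiesterase lists stood at 1.31 times each and the dystrophin-associated genes at 1.26 times. Gpc5 had 81.6 HMGA2 peaks per Mb, Nrg3, a ligand of ERBB4, 46.9, and Erbb4 itself 90.1. Glutamate receptors (1.17 times), axon guidance genes (1.16 times) and cadherins and catenins (1.15 times) were also above the mean. The CUB and sushi list stood at 1.08 times, receptor phosphatases at 1.07 times, immunoglobulin adhesion genes at 1.04 times and neurexins and relatives at 0.998 times. Only the channel genes, at 0.808 times, and the transcription and RNA regulators had their whole interval below the HMGA2 mean. For ATM all other lists lay between 0.852 times (glypicans) and 1.08 times (dystrophin-associated genes), except the CUB and sushi list at 0.724 times.

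For several lists the members under 500 kb behaved like the very long ones. Glutamate receptors stood at 0.661 times the γ-H2AX mean in the very long and 0.649 times in the shorter genes, neurexins and relatives at 0.646 and 0.574 times, and transcription and RNA regulators at 1.26 times in both. In others they differed. Dystrophin-associated genes had 0.643 times in the very long and 1.36 times in the shorter genes, and CUB and sushi proteins and LDL receptor relatives 0.517 and 0.975 times, with intervals that did not overlap. These are descriptions of lists of 3 to 11 very long genes.

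**Figure D5:**
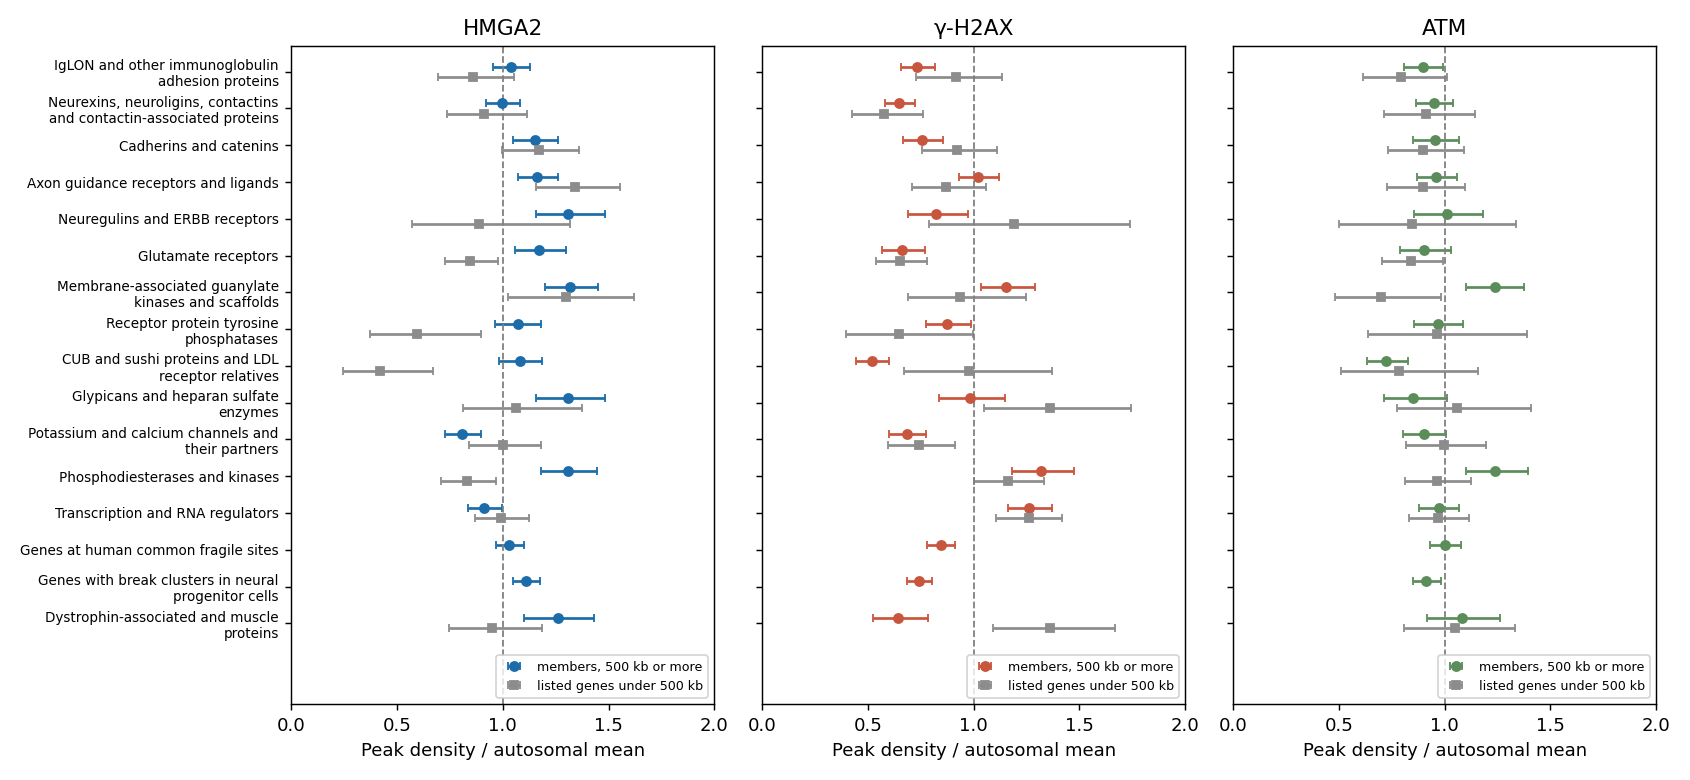
Peak density divided by the autosomal mean of the antibody (x axis) for 16 gene lists (rows), for very long members (coloured circles) and listed genes under 500 kb (grey squares), with 95% Poisson intervals; the dashed line is the autosomal mean, and the fragile-site and break-cluster lists hold no gene under 500 kb. In the γ-H2AX panel the transcription and RNA regulators stand at 1.26 and the CUB and sushi list at 0.517 times the mean.

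Genes known for DNA breakage did not stand above the mean in γ-H2AX. The 12 genes at human common fragile sites had 41.9 γ-H2AX peaks per Mb, 0.843 times the mean, beside 1.03 times the HMGA2 mean and 1.00 times the ATM mean. With 2 of the 12 dense and 5 sparse in γ-H2AX, they were near the 19.4% dense and 41.2% sparse of all 211 very long genes. Of the 4 longest of them Macrod2 had 62.6 γ-H2AX peaks per Mb, Fhit, a dinucleoside hydrolase, 41.6, Cntnap2 29.4 and Lrp1b 27.7. The 14 genes with break clusters in neural progenitor cells had 36.8 γ-H2AX peaks per Mb, 0.741 times the mean, with 1 gene dense and 7 sparse, beside 1.11 times the HMGA2 mean and 0.913 times the ATM mean. In the longest of these Lsamp had 35.5, Csmd1 20.7, Nrxn3 30.4 and Rbfox1 29.5 γ-H2AX peaks per Mb. All very long genes together stood at 45.0 γ-H2AX peaks per Mb. These lists come from other cells, and the labels name no DNA-damaging treatment of the fibroblasts.

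The score of a peak, 10 times the negative log10 of the p that the authors' caller gave it, was 23.8 at the median in very long genes and in other genes for HMGA2. Scores of 40 or more made up 2.32% of HMGA2 peaks in very long genes against 2.34% in other genes. For γ-H2AX the shares were 1.40% (1.17 to 1.69) in very long genes and 2.03% (1.91 to 2.16) in other genes, so the shortfall of γ-H2AX was larger among high-scoring peaks. For ATM they were 1.53% and 1.65%. The highest-scoring HMGA2 peaks in very long genes lay in Lhfpl3 (72.5), Sox5 (71.8) and Sntg1 (70.9). The highest γ-H2AX scores were in Rora (85.6), an orphan nuclear receptor, Dcc (72.4), the netrin receptor, and Rbms3 (70.9), and the highest ATM scores in Nkain3 (67.8), Gpc6 (63.7) and Cntnap2 (63.3). In other genes HMGA2 scores reached 226.

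Few peaks of different antibodies touched, though more than their densities alone give. Of the HMGA2 peaks in very long genes, 263 (2.27%, 2.02 to 2.56) overlapped a γ-H2AX peak by 1 bp or more, against 3.38% (3.22 to 3.54) in other genes. Seen from the γ-H2AX peaks, the share touching HMGA2 was 3.32% in very long genes and 3.32% in other genes. Very long genes also held fewer γ-H2AX peaks per Mb, and the part of this in the lower share from the HMGA2 side was not tested. Peaks placed independently at the densities of each set, with their own widths, would give 181 such overlaps in very long genes, so that the count was 1.45 times that value (1.28 to 1.64), against 1.64 times (1.56 to 1.72) in other genes. With ATM 254 HMGA2 peaks (2.19%) were shared in very long genes, against 2.48% in other genes. This was 1.38 times the 185 that the densities give (1.21 to 1.56), against 1.51 times (1.43 to 1.60) in other genes. Whether mappability or background common to the libraries has a part in this was not tested. All 3 met at 12 HMGA2 peaks in 11 very long genes (0.104%), against 0.137% in other genes: 2 in Magi2 and 1 each in Lama2, Ptprg, Csmd3, Prkg1, Ptprd, Skint5, Auts2, Cntnap2, Pde1c and Tenm3.

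A few of the 211 entries are unusual gene models. Gm37013, Gm38666 and Gm38667 are predicted genes on chromosome 18 that overlap one another across the protocadherin cluster and enclose 51 to 54 Pcdh genes each. Iqschfp overlaps Schip1 on chromosome 3. In total 35 of the 211 genes enclose another protein-coding gene. Overlapping bodies were merged, so that no base counted more than 1 time in the densities of all very long genes, but the values of these single genes share peaks.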

How the data were processed

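Peak lists of 3 wild-type ChIP-seq libraries were used, 1 per antibody, as the authors deposited them. Per the labels, the authors called peaks with MACS14 without its model, at a p threshold of 1e-2 and a shift size of 30 bp, and each deposited peak carries a score, 10 times the negative log10 of its p, with 20 as the lowest. The submitters' processing notes name Trimmomatic, Bowtie2, SAMtools, MACS and HOMER without versions, and mm10. The control library of the calls is not given in the sources used here, and read depth is unknown. The deposited promoter lists (unit other) hold only starts and ends.

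Gene spans came from the RefSeq gene table (GRCm38.p6), and strand and promoters from its promoter table. Peaks were placed by midpoint, bodies and windows were merged, and flanks ran from 5 to 100 kb. Densities have exact Poisson intervals, ratios exact conditional intervals and shares Wilson intervals, all at 95% and for counting error only (Python 3.11.15, scipy 1.17.1). Counting was tested on simulated peaks. Genes under 100 kb were left out of the counts of dense and sparse genes, since they hold too few peaks.

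Named genes were, per antibody, the 5 densest and 5 sparsest and the 3 with the highest-scoring peak, the 5 longest, the 3 highest and 3 lowest ratios of γ-H2AX to HMGA2 peaks, the 3 on either side of 500 kb, genes with all 3 antibodies at 1 end, and up to 4 examples a list. Genes dense or sparse in all 3, those of the promoter lists and those with printed promoters were named after their values were seen. Some genes under these rules are not reported here. The members and the 16 lists were chosen with earlier results of these data known. Zfp385d, a listed gene, had no match in the annotation.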

Additional observations from a re-analysis of the deposited data

How the results depend on the processing

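Of 72 alternatives over the results, 47 stayed within the counting interval of the reported value (for counts of genes, within 1.5 times). The γ-H2AX ratio of very long to other genes of 0.762 was 0.683 with scores of 30 or more, 0.646 with the 10000 highest-scoring peaks and 0.697 for genes of 1000 kb or more. Against sequence outside protein-coding genes it was 1.00, which ends its direction, while other genes stood at 1.31 against the same sequence. The HMGA2 ratio of 1.13 was 1.06 at scores of 30 or more (1.000 to 1.13), 1.04 with the 10000 highest-scoring peaks (0.959 to 1.12), 1.17 at 1000 kb or more and 1.06 against other genes of 100 to 500 kb; the HMGA2 excess is thus small and not seen beyond counting error among the highest-scoring peaks. The ATM ratio of 0.978 was 0.923, 0.920, 0.953 and 0.948 in the same order of settings. At gene ends the HMGA2 ratio of 1.14 was 1.36 within 1 kb and 0.956 against other genes of 100 to 500 kb, the γ-H2AX ratio of 0.875 was 0.622 at scores of 30 or more, and the ATM ratio of 0.935 was 0.781 within 1 kb. The γ-H2AX body over flank ratio of 0.966 was 1.02 with flanks free of protein-coding genes. At 1.5-fold 40 genes were dense and 35 sparse for HMGA2, 20 and 56 for γ-H2AX, and 6 and 16 for ATM. With scores of 30 or more the counts were 70 and 85 for HMGA2, 50 and 122 for γ-H2AX, and 49 and 95 for ATM. For HMGA2 the order of dense and sparse turned at that setting, but only 11.1% of its peaks in very long genes score 30 or more. No direction is read from these counts. Shares of all genes of 100 kb or more were not computed at these settings, so the counts have no background beside them. The causes were not tested. Leaving out the 3 predicted genes of chromosome 18, or other genes inside the bodies, both added after seeing the data, gave γ-H2AX ratios of 0.763 and 0.763. No paired analysis was possible because each antibody has 1 library. Depth is unknown, and replicate error, base composition and mappability were not measured.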
